A study of Mus musculus with 300 samples.

Results

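The 8 genes described here encode RNA-binding proteins of germ cells: Nanos1, Nanos2, Nanos3, Dnd1, Dazl, Lin28a, Lin28b and Ybx2. They were chosen by name and make up 8 of the 23354 gene names measured. All 8 had at least 1 FPKM (fragments per kilobase of transcript, scaled to the mapped fragments of the cell) in at least 30 cells, as did 10411 genes in all, and these entered the tests across quartiles. The data are single-cell RNA-seq profiles of 300 spermatogonia from untreated adult mice that carry an ID4-EGFP reporter, captured on Fluidigm C1 chips in 4 preparations. Every cell came through a sort for bright CD9 and for EGFP, so all groups share the reporter and there is no reporter-negative group. Strain and exact age are not given in the sources used here, and each preparation pooled 2 or more mice. EGFP brightness on the chip divided the cells into quartiles: Q1 (brightest, 79 cells), Q2 (78 cells), Q3 (71 cells) and Q4 (dimmest, 72 cells). Each preparation counts as 1 replicate (n = 4), and its cells do not.

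Germ cells control much of their gene expression after transcription, through proteins that bind messenger RNA and set its translation, storage or decay. NANOS proteins are zinc finger proteins that bring target transcripts to the CCR4-NOT deadenylase, and DND1 is a partner in the choice of those targets. DAZL binds 3′ untranslated regions and promotes translation, LIN28 proteins block the maturation of let-7 microRNAs, and YBX2 packages stored transcripts in later germ cells. In the mouse testis, NANOS2 is known from undifferentiated spermatogonia that also carry the GDNF co-receptor GFRA1, while NANOS3 and LIN28A are known from a wider set of undifferentiated spermatogonia. Whether Nanos2 and Nanos3 transcripts mark different cells is the question that the comparisons below address.

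Most cells matched their label: 283 of the 300 held at least 3 and at least 50% of 7 spermatogonial markers at 5 FPKM or more, and 17 did not. Of the 300 cells, 299 detected Ddx4, 300 Uchl1, 294 Sall4, 268 Zbtb16, 201 Stra8, 174 Gfra1 and 93 Kit at 1 FPKM or more. By the same rule, 17 cells reached the cut for non-spermatogonial markers: 9 for macrophage, 7 for spermatid and 1 for peritubular myoid markers. For the Sertoli, Leydig, endothelial and pachytene lists, 0 cells did. These 17 cells and the 17 below the spermatogonial cut are not the same set. All 38 cells that detected Ybx2 passed the spermatogonial cut, and 1 of them also passed the spermatid cut. Dazl stood at 239 FPKM or more in all 300 cells, so a match to such markers does not by itself name a cell's type. The erythroid list had 2 measured markers, too few for a match, and Hba-a1 was at 0 in every cell. The table holds no counts. From the step that 1 fragment makes in the values of 3778 genes with a single transcript, the depth was coarsely estimated at 366000 to 1464000 fragments per cell (median 732000). Between 2934 and 7817 genes were detected per cell, and preparation 1 held fewer on average (4368) than preparations 2, 3 and 4 (5813, 5572 and 6216). Its mean estimated depth, 782000 fragments, was not the lowest (632000, 755000 and 870000 in preparations 2, 3 and 4). A threshold of 1 FPKM then stood for about 0.534 fragments of the short Nanos3 transcript and about 3.95 fragments of the long Lin28b transcript, so the threshold is stricter for long transcripts. The SMARTer kit does not mark strand.

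Nanos2 lies at chr7:18987400-18988962 (plus strand) and Nanos3 at chr8:84173731-84185217 (minus strand) of GRCm38, per the GENCODE annotation. Other loci are chr19:60755987-60759914 for Nanos1, chr17:50279395-50293636 for Dazl, chr4:134003330-134018841 for Lin28a, chr10:45376620-45486395 for Lin28b and chr11:69935796-69941605 for Ybx2. Exons of Dnd1 overlap Wdr55 on the opposite strand, those of Nanos2 overlap Gm45058 and those of Lin28a overlap Gm13061. Reads from such overlaps cannot be assigned to a strand here, and Wdr55 itself was detected in 210 cells.

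The upstream sequences of Nanos3 and Lin28a are shown because these 2 transcripts went together across cells, and that of Nanos2 is shown beside them. They come from the RefSeq promoter table for GRCm38.p6, run 5′ to 3′ on the gene's strand, and cover the 250 bases before the RefSeq start or as many of them as precede the first annotated exon. The Nanos2 and Lin28a windows therefore end just before the annotated locus, while the Nanos3 window ends at the RefSeq start, which lies inside the longer annotated Nanos3 locus. Capitals mark matches, on either strand, to CACGTG or CACCTG (E-box letters, which basic helix-loop-helix factors can bind), GGGCGG (a GC box), CCAAT or TATAAA. The windows are chr8:84176553-84176802 (minus strand, 250 bases), chr4:134018842-134019066 (minus strand, 225 bases) and chr7:18987274-18987399 (plus strand, 126 bases).
Nanos3: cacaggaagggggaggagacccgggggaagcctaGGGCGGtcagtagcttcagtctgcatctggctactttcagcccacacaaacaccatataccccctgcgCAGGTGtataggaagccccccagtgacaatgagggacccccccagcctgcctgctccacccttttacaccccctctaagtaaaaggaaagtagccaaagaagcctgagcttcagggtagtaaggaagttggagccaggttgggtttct
Lin28a: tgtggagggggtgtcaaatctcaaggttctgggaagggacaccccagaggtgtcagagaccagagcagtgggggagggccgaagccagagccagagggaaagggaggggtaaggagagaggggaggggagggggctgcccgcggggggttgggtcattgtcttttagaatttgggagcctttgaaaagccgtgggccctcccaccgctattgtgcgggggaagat
Nanos2: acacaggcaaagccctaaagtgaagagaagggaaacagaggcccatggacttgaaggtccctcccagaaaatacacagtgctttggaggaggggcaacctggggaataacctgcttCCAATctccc
The Nanos3 window held 1 GGGCGG match and 1 CACCTG match, the latter read as CAGGTG on this strand. The Nanos2 window held 1 CCAAT match, and the Lin28a window held none of the 5 motifs. Over all 32851 windows of the table, at 250 bases, 17.2% held CACCTG, 6.02% CACGTG, 32.7% GGGCGG, 33.9% CCAAT and 12.4% TATAAA. Over the first 126 bases, the length of the Nanos2 window, 16.9% held CCAAT, so each of these matches is common. They are matches of letters only.

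Dazl was the most abundant of the 8 transcripts and the only one found in every cell. Its FPKM ran from 239 to 2985 among the 300 cells, with a median of 1055. Nanos3 stood at 1 FPKM or more in 205 cells, Dnd1 in 203, Lin28a in 202 and Nanos1 in 162. Lin28b was detected in 85 cells, Ybx2 in 38 and Nanos2 in 35. Among detecting cells the median FPKM was 141 for Nanos3, 59.9 for Lin28a, 44.04 for Dnd1, 24.4 for Nanos2 and 18.7 for Nanos1. It was 7.29 for Lin28b and 6.25 for Ybx2, so that Nanos2 was rare but, where present, higher per length than Nanos1, Lin28b or Ybx2. The number of members per cell peaked at 4 (95 cells), 6 cells held Dazl alone and 0 cells held all 8.

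On the scale of mean log2(FPKM + 1), the order over preparations was Dazl (10.07 ± 0.11, SD, n = 4), Nanos3 (4.53 ± 0.47), Lin28a (3.74 ± 1.27), Dnd1 (3.52 ± 0.69) and Nanos1 (2.35 ± 0.04). Lin28b (0.95 ± 0.21), Nanos2 (0.55 ± 0.12) and Ybx2 (0.39 ± 0.12) followed. The preparations of Nanos3, Lin28a and Dnd1 overlapped, and so did those of Nanos2 and Ybx2, so these neighbours did not differ beyond their spread. Every other neighbouring pair in this order was separate in all 4 preparations. Lin28a varied most between preparations, at 1.94, 4.23, 3.88 and 4.90, and its share of detecting cells was 44.8, 69.5, 69.01 and 82.5%. Preparation 1, with the fewest genes per cell though not the lowest estimated depth, was the lowest in both. The part of the number of detected genes in this was not tested.

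**Figure D1:**
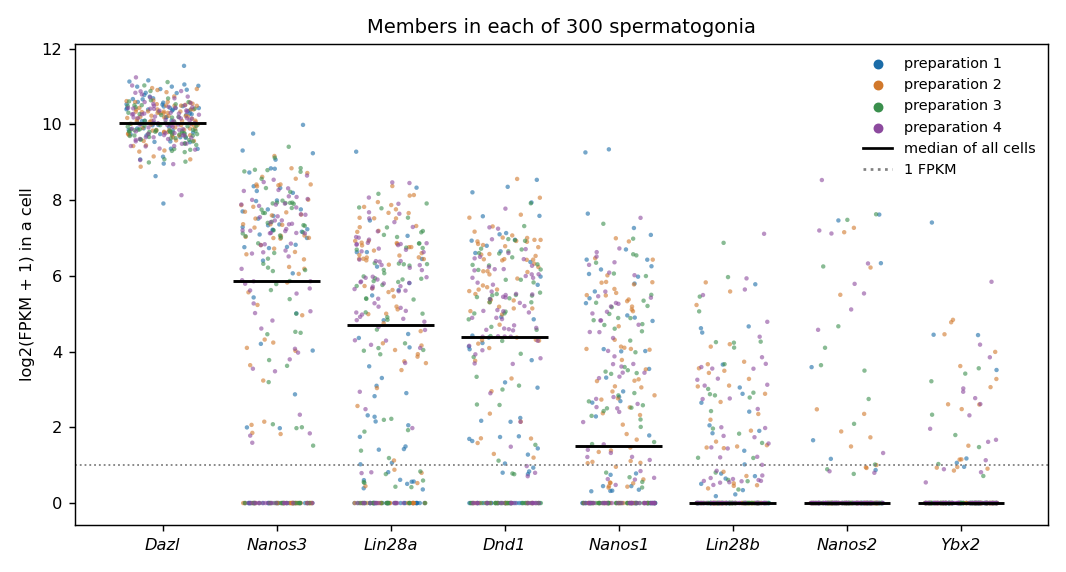
Values of the 8 members in each of the 300 cells on the log2(FPKM + 1) scale, coloured by preparation, with the median of all cells as a black line and 1 FPKM as a dotted line. Dazl forms a narrow band in every cell, and Lin28b, Nanos2 and Ybx2 are at 0 in most cells. Nanos3, Lin28a and Dnd1 mostly split into cells at 0 and cells well above it. Nanos1 has more cells in between, with 187 above 0 but 128 at 5 FPKM or more.

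Across EGFP quartiles, 0 of the 8 members passed the trend or the Q1 against Q4 comparison (limma, Benjamini-Hochberg over 10411 genes, adjusted p under 0.05). Of all tested genes 4.25% were called for the trend and 3.25% for Q1 against Q4, so a count of 0 of 8 lies near the background. At an unadjusted p under 0.05, 1838 of the 10411 genes and 3 of the 8 members (Lin28a, Nanos3 and Nanos2) stood out for the trend. No neighbouring pair of quartiles separated any member either. Over all genes those pairs called 0.0192% (Q1 against Q2), 0% (Q2 against Q3, with 767 genes at an unadjusted p under 0.05) and 0.00961% (Q3 against Q4).

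Nanos2, whose protein holds spermatogonia in an undifferentiated state, was detected more often in bright cells by count. In Q1 29.4, 19.1, 10.5 and 13.6% of cells of preparations 1 to 4 detected it, in Q2 0, 9.52, 25 and 20%, in Q3 6.67, 15, 5.88 and 0%, and in Q4 0, 5, 13.3 and 10.5%. The quartiles overlap, and the preparations differ in where they peak. Zero detecting cells among 17, 19 and 18 cells allow shares of up to 17.6, 15.8 and 16.7%, by counting error alone. The share rose by 3.96 percentage points per step to the next brighter quartile, with the same sign in 4 of 4 preparations, and did not pass (exact permutation p = 0.0600, two-sided, adjusted p = 0.385). Share slopes called 1.13% of all genes. The level had a slope of 0.18 (limma, SE 0.08, adjusted p = 0.263), and Q1 to Q4 stood at 0.76 ± 0.35, 0.74 ± 0.66, 0.36 ± 0.26 and 0.30 ± 0.29 (mean log2(FPKM + 1), SD, n = 4).

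Nanos3, which is known for the survival and maintenance of germ cells, was lowest in the brightest quartile by its mean level. In Q1 preparations 1 to 4 stood at a mean log2(FPKM + 1) of 3.50, 2.26, 4.01 and 4.14, in Q3 at 5.58, 4.94, 4.47 and 6.60, and in Q4 at 3.49, 5.11, 6.09 and 3.60. Each of the 4 preparations was higher in Q3 than in Q1, while Q4 was above Q1 in preparations 2 and 3 and not in preparations 1 and 4. The slope per step to the next brighter quartile was -0.39 (SE 0.16, 95% interval -0.72 to -0.05, limma adjusted p = 0.197). Without preparation 2 the slope was -0.19 (adjusted p = 0.686) and the Q1 minus Q4 difference -0.51 in place of -1.09. With the mean number of detected genes per cell as a covariate the slope was -0.02 (adjusted p = 0.974) and the Q1 minus Q4 difference 0.06. From Q1 to Q4 the share of detecting cells was 57.1 ± 13.2, 70.5 ± 11.4, 79.8 ± 6.99 and 67.1 ± 12.5% (SD, n = 4; slope -3.95 points, exact permutation p = 0.153).

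Nanos1, the least studied of the 3 in the mouse testis, had a slope near 0. It stood between 1.83 and 3.00 in all 16 combinations of preparation and quartile, with a trend of 0.00 (SE 0.11, limma adjusted p = 0.992). Its detection ranged from 40 to 70.6% of cells. Dnd1 was also without an ordered change (slope -0.09, SE 0.15, adjusted p = 0.815). Its preparations spread widely in Q4, at 2.52, 5.31, 5.15 and 3.81, where 38.9, 95, 93.3 and 68.4% of cells detected it. Both values are lowest in preparation 1.

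Dazl differed little between quartiles, and its mean log2(FPKM + 1) went from 10.01 ± 0.14 (SD, n = 4) for Q1 to 10.17 ± 0.18 for Q4. Its slope was -0.05 (SE 0.04, 95% interval -0.13 to 0.03, limma adjusted p = 0.571). All 16 means lay between 9.80 and 10.39.

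Lin28a, which marks undifferentiated spermatogonia and blocks let-7 maturation, had the steepest slope of the 8, downward with brightness. In Q1 the preparations stood at 1.501, 2.24, 4.09 and 4.398, in Q3 at 2.77, 5.64, 4.48 and 5.75, and in Q4 at 1.31, 5.15, 4.03 and 5.57. Every preparation was higher in Q3 than in Q1, but only preparations 2 and 4 were higher in Q4 than in Q1. The slope was -0.42 (SE 0.14, 95% interval -0.71 to -0.13, limma adjusted p = 0.0984), and did not pass. Without 1 preparation it ran from -0.21 (without preparation 2, adjusted p = 0.537) to -0.56 (without preparation 1, which held the fewest genes per cell, adjusted p = 0.0455). The share slope was -4.79 points per quartile (exact permutation p = 0.115, adjusted p = 0.496). Lin28b, its paralogue, was detected in 21.4 ± 5.03% of Q1 cells and 32.3 ± 20.9% of Q4 cells (SD, n = 4; level slope -0.18, SE 0.10, adjusted p = 0.380). Without preparation 4 the Lin28b slope was -0.03 (adjusted p = 0.927).

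Ybx2, best known from spermatocytes and spermatids, was detected in 16.1 ± 9.09% of Q1 cells and 8.68 ± 4.19% of Q4 cells (SD, n = 4). It had 0 detecting cells among 20 in preparation 3, Q2 and among 15 in preparation 1, Q3. Its level slope was 0.07 (SE 0.06, limma adjusted p = 0.596), and 0.03 without preparation 4 to 0.15 without preparation 3. Of the 38 detecting cells 1 matched the spermatid list, as did 6 of the other 262 cells, and 0 matched the pachytene list. The summed FPKM of the pachytene markers had a mean per preparation of 3.19 to 189.9 in Ybx2-detecting cells. With 38 such cells over 4 preparations, a single cell can set a mean of this kind. In the other cells the mean was 3.29 to 7.35. The 2 ranges overlap, and the difference was not tested.

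**Figure D2:**
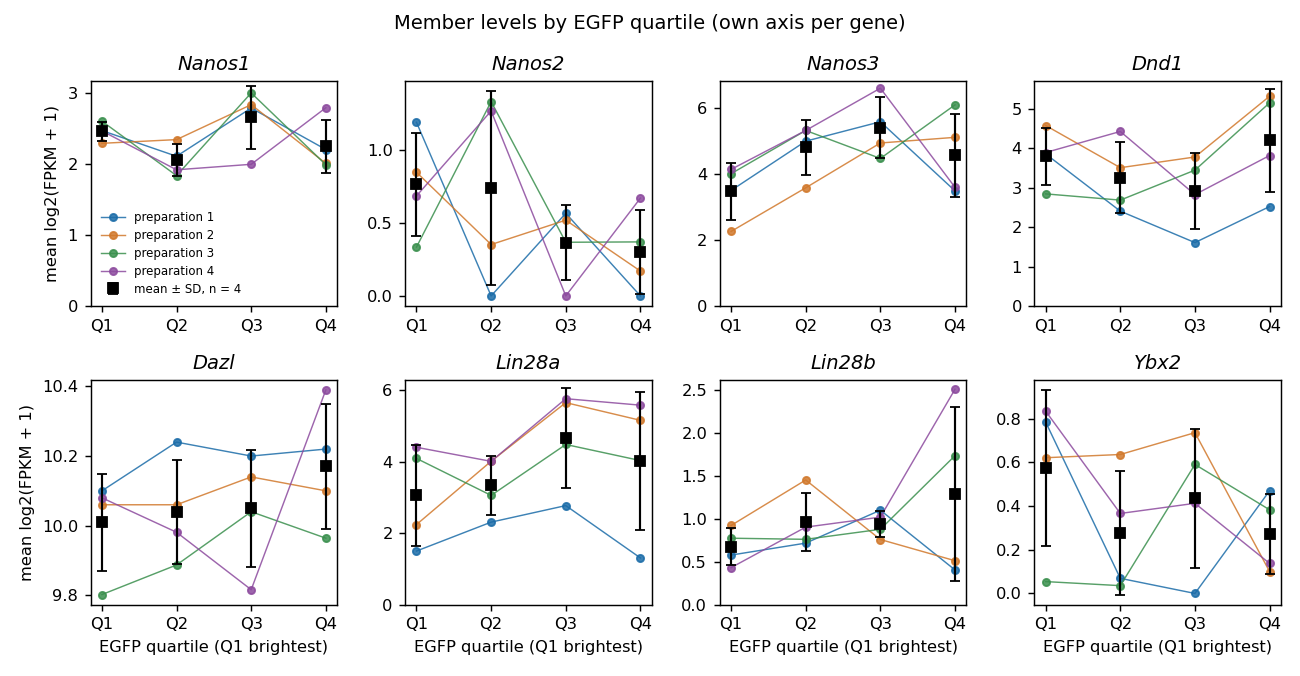
Mean log2(FPKM + 1) of each member per preparation (coloured lines) in the 4 EGFP quartiles, with black squares and bars for the mean and SD of 4 preparations. Each gene has its own axis and that of Dazl does not start at 0, since its 16 means span only 9.80 to 10.39. Nanos3 and Lin28a are higher in Q3 than in Q1 in all 4 preparations.

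**Figure D3:**
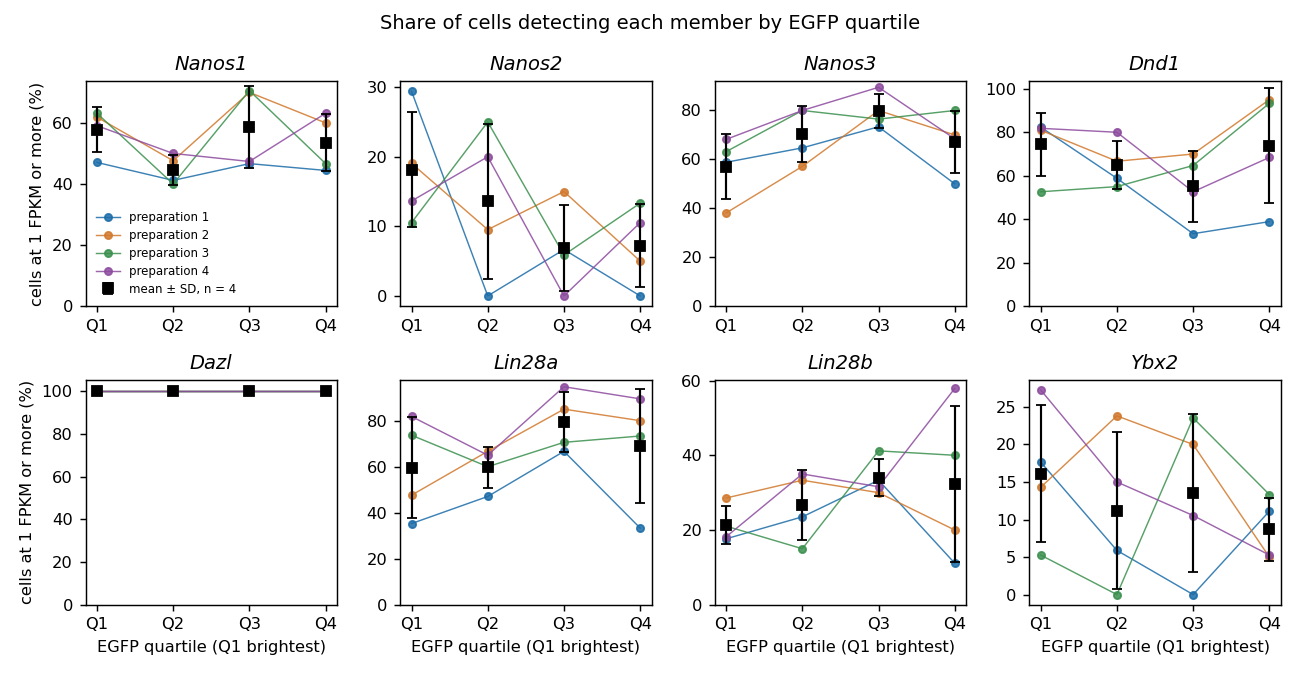
Percent of cells with at least 1 FPKM of each member per preparation in the 4 EGFP quartiles, with black squares and bars for the mean and SD of 4 preparations. Nanos2 is found in at most 29.4% of the cells of any preparation and quartile, and Dazl in 100% throughout.

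Most cells with Nanos2 also held Nanos3. Of the 35 cells with Nanos2, 29 also held Nanos3, 6 held Nanos2 without it, 176 held Nanos3 alone and 89 held neither. Within preparations 24.1 cells with both would arise if the 2 were independent. Preparation 1 had 3 cells with both against 3.67 so computed, preparation 2 had 7 against 6.10, preparation 3 had 10 against 7.46 and preparation 4 had 9 against 6.86. In preparations 3 and 4 every Nanos2 cell also held Nanos3, while in preparation 1 this held for 50% of Nanos2 cells against 62.3% of the other cells. The common log2 odds ratio was 1.32, positive in 3 of 4 preparations (-0.71, 0.54, 3.16 and 2.82). It did not pass an exact sign-flip test over preparations (p = 0.375, two-sided, where 4 preparations allow no less than 0.125).

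Pooled over preparations, the level of Nanos3 in cells with both was not lower than in cells with Nanos3 alone. The median FPKM of Nanos3 was 195 in the 29 cells with both (10.2 to 377) and 138 in the 176 cells without Nanos2 (1.86 to 1013). The cells with both came from preparations 1 to 4 as 3, 7, 10 and 9. Nanos3 was highest in preparations 3 and 4 (mean log2(FPKM + 1) of 4.93 and 4.89 over all cells), and the medians were not compared within preparations. Across all 300 cells the Pearson correlation of Nanos2 and Nanos3 was 0.10 after subtraction of preparation means, and -0.06 to 0.28 within preparations. This is a description over cells that share a library preparation. The cells with both fell into Q1 to Q4 as 11, 10, 3 and 5, those with Nanos3 alone as 34, 45, 54 and 43, and those with Nanos2 alone as 3, 1, 2 and 0. With Nanos1 added, 41 cells held none of the 3 NANOS transcripts, 99 held Nanos1 and Nanos3, 77 Nanos3 alone, 48 Nanos1 alone and 12 all 3.

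**Figure D4:**
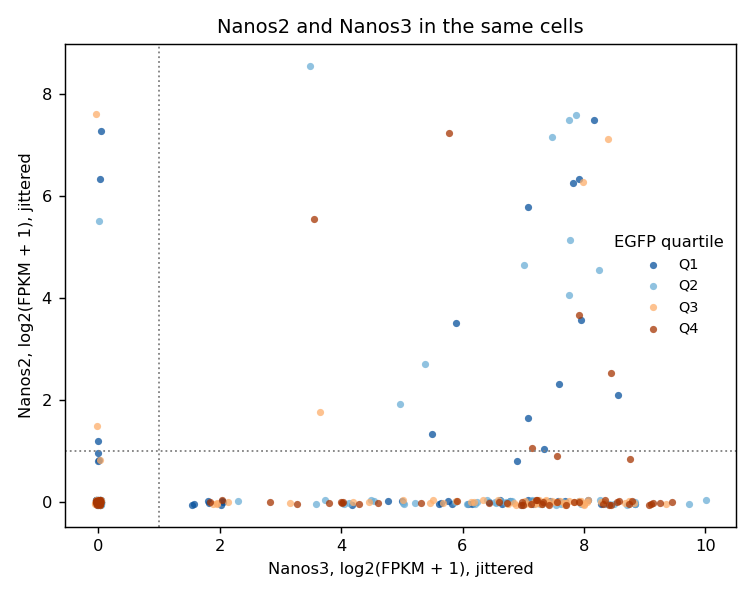
Nanos3 (horizontal) and Nanos2 (vertical) in each of the 300 cells on the log2(FPKM + 1) scale, with slight jitter and coloured by EGFP quartile, where dotted lines mark 1 FPKM. Most cells with Nanos2 lie to the right of the vertical line: 29 of 35 also hold Nanos3.

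Among the 21 pairs of members other than Dazl, 5 had a positive odds ratio in 4 of 4 preparations. These were Nanos3 with Lin28a, Dnd1 with Lin28a, Dnd1 with Lin28b, Lin28a with Lin28b, and Nanos2 with Lin28a. With 4 preparations such a pair reaches an exact sign-flip p = 0.125 at best, so none passed. No share was computed for pairs of other genes, so the count of 5 has no background to be read against. Nanos3 with Lin28a had the largest common log2 odds ratio, 1.502, with 154 cells holding both against 140 if independent. In preparations 1 to 4, 53.7, 84, 71.7 and 85.2% of cells with Nanos3 held Lin28a, against 30.8, 46.9, 61.1 and 73.7% of cells without it. Their Pearson correlation over 300 cells was 0.33 (0.28 to 0.37 within preparations), the largest among the 28 pairs of members. The level of each member had a weak positive correlation with the genes detected per cell, from 0.05 (Ybx2) to 0.23 (Dazl) over 300 cells after subtraction of preparation means. The part of detection depth in co-detection was not tested.

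Cells that detected Nanos3 were then set against the other cells of the same preparation, and likewise for Nanos2. These classes come from a measured transcript, not from a label. Nanos3 had 0 cells between 0 and 1 FPKM and 14 from 1 to under 5, and Nanos2 had 7 and 11. At the median depth 1 FPKM stood for about 0.534 fragments of Nanos3 and 1.14 of Nanos2. Values under 1 FPKM could thus hardly occur for Nanos3, so these counts do not show which boundary is sharper. The classes replace a planned comparison of Nanos2-only with Nanos3-only cells, which could not be fitted with 6 Nanos2-only cells, and were chosen after the data were seen.

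Cells with Nanos3 carried more Lin28a. Its mean log2(FPKM + 1) was 2.59, 5.31, 4.20 and 5.18 in Nanos3-detecting cells of preparations 1 to 4 and 0.91, 2.55, 2.91 and 4.003 in the others. The detecting cells were higher within each preparation, though the 2 sets of values overlap across preparations. The difference was 1.72 (SE 0.32, limma adjusted p = 0.0181). With each cell centred on its preparation and quartile it was 1.45 (adjusted p = 0.0352), and without the 17 cells that matched another cell type 1.92 (adjusted p = 0.00836). It no longer passed without preparation 1 (1.74, adjusted p = 0.0715), without preparation 2 (1.38, adjusted p = 0.288), with the detected genes as a covariate (1.39, adjusted p = 0.707), without the preparation block (1.72, adjusted p = 0.999) or with no filter on low values (1.72, adjusted p = 0.518). Of the 6 members tested, Lin28a alone passed, against 0.211% of all 10409 genes tested. Dnd1 differed by 0.65 (adjusted p = 0.534), and by 0.36 without preparation 4. Nanos1 differed by -0.37 (adjusted p = 0.800), and by -0.18 without preparation 1 and -0.61 without preparation 2.

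The genes called in Nanos3-detecting cells were 22, of which 21 had more transcript there and 1 had less. The 5 largest increases were Pxt1, a testis gene of the peroxisome (5.71 ± 0.46 against 3.006 ± 0.73, SD, n = 4; difference 2.71, adjusted p = 0.000255), Upp1, Enc1, Psmb10 and Usf1. Upp1, uridine phosphorylase, stood at 4.37, 5.55, 4.65 and 5.64 in detecting cells and at 2.36, 3.46, 0.90 and 2.97 in the others. The groups of Upp1 values did not overlap (difference 2.63, SE 0.32, adjusted p = 0.000345). Enc1, a kelch protein that binds actin, was higher by 2.11, Psmb10, an immunoproteasome subunit, by 1.90 and Usf1, an E-box-binding factor, by 1.88. The other higher genes, all named here after their values were seen, were Igfbp6 (1.86), Erap1 (1.71), Oasl2 (1.63), Ly6g6e (1.62), Fam69a (1.58), Mycn (1.54), Tcf7l2 (1.53), Psmd7 (1.36), Syce1l (1.29), Gbp2 (1.27), Fam118b (1.24), Ifitm1 (1.11), Eppin (1.00), Sdc4 (0.98) and Gyg (0.75). The 1 lower gene was the predicted gene 2500004C02Rik (-1.38).

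Of the 9 cells that matched the macrophage list 8 detected Nanos3, beside 205 of all 300 cells (68.3%). The summed FPKM of the 6 macrophage markers had a mean per preparation of 7.72 to 364 in Nanos3-detecting cells and 6.42 to 37.5 in the others. These ranges overlap, and the difference was not tested. Without these 9 cells and the 8 cells of other lists, 21 of the 22 genes were still called. Nanos3-detecting cells also held slightly more genes, 5559 ± 819 against 5348 ± 722 (SD, n = 4). With that number as a covariate 1 gene was called (Pxt1), without the preparation block 3 genes, and without preparation 2 only 10. All 22 genes kept the sign of their difference in each of these fits. Several of the 21 higher genes also followed brightness, most of them downward. Upp1 fell by 0.95 per step to a brighter quartile (limma adjusted p = 5.63e-05). Oasl2 (slope -0.54, adjusted p = 0.0215), Pxt1 (-0.44, 0.0494), Eppin (-0.41, 0.0067) and Ifitm1 (-0.36, 0.0175) fell too. Sdc4 alone rose, by 0.29 (adjusted p = 0.000335). With each cell centred on its preparation and quartile 20 genes were called, all among the 22.

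Of the 16 panel genes of spermatogonial states, Upp1 alone passed in Nanos3-detecting cells. The next by unadjusted p were Eomes (-0.99, adjusted p = 0.166), Stra8 (-1.03, adjusted p = 0.257), Gfra1 (-0.997, adjusted p = 0.280), Neurog3 (0.42, adjusted p = 0.309) and Sohlh1 (0.81, adjusted p = 0.309). Eomes and Gfra1 are known from stem-like spermatogonia, Neurog3 and Sohlh1 from progenitors and Stra8 from cells that respond to retinoic acid. None of these 5 differences passed.

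Cells with Nanos2 showed no gene past the threshold, 0% of the 10409 genes tested (limma), with 721 at an unadjusted p under 0.05. There were 6, 10, 10 and 9 such cells in preparations 1 to 4, counted as cells with both plus cells with Nanos2 alone. Gfra1 stood at 3.64, 5.95, 3.83 and 4.64 in Nanos2-detecting cells and at 2.08, 3.27, 3.14 and 2.46 in the others. The 2 sets of values did not overlap, yet the difference of 1.78 (SE 0.41) had an adjusted p of 0.501. Centred on preparation and quartile, Gfra1 differed by 1.02 (adjusted p = 0.802). Among the members, Nanos1 differed by -1.28 (SE 0.43, adjusted p = 0.563) and Dnd1 by 1.24 (SE 0.51, adjusted p = 0.661), while Lin28a differed by 0.37 (SE 0.37, adjusted p = 0.876). Without preparation 1 the Dnd1 difference was 0.53.

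The difference between the 2 effects was tested directly, as the Nanos2 effect minus the Nanos3 effect within each preparation. No gene passed, 0% of 10409 (limma), with 715 at an unadjusted p under 0.05. The cells with both transcripts enter both effects. Gfra1 had effects of 1.78 for Nanos2 and -0.997 for Nanos3, a difference of 2.77 (SE 0.52, adjusted p = 0.377) with one sign in 4 of 4 preparations. Upp1 had effects of 0.15 and 2.63, a difference of -2.48 (SE 0.44, adjusted p = 0.377). Lin28a differed by -1.36 (SE 0.44, adjusted p = 0.655), Eomes by 1.55 and Etv5 by 1.74 (adjusted p = 0.655 each). Centring on preparation and quartile took Gfra1 to 1.69 and Upp1 to -1.82.

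**Figure D5:**
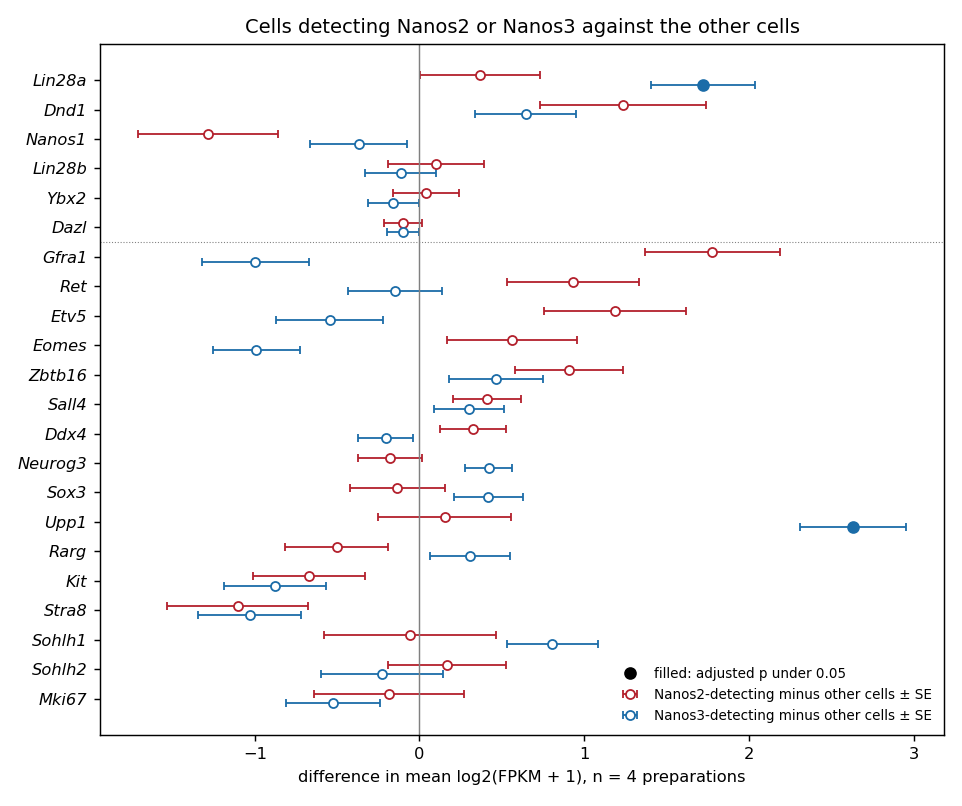
Difference in mean log2(FPKM + 1) between cells that detect Nanos2 (red) or Nanos3 (blue) and the other cells of the same preparation, with SE from limma over 4 preparations, for 6 members above the dotted line and 16 panel genes below it. Filled points, Lin28a and Upp1 for Nanos3, have an adjusted p under 0.05, and Gfra1 lies at 1.78 for Nanos2 and at -0.997 for Nanos3.

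The lists of genes around the members had few calls with brightness, as had all tested genes (4.25%), so their counts lie near the background. Of 15 NANOS partners and CCR4-NOT subunits, all tested, 1 rose and 0 fell with brightness, with a median slope of 0.13 beside 0.03 over all tested genes. The riser was Tob1, an antiproliferative protein that recruits the deadenylase (slope 0.42, SE 0.08, limma adjusted p = 0.00348). Cnot3 (0.18, adjusted p = 0.301) and Cnot10 (0.22, adjusted p = 0.352), subunits of the complex, came next by p. Tob1 also passed between Q1 and Q4 (difference 1.19, adjusted p = 0.0111).

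In the LIN28 and let-7 list, 0 of 13 tested members passed for the trend (median slope 0.10). Igf2bp1, a let-7 target that binds RNA, had a slope of 0.34 (adjusted p = 0.0754), Drosha, which cuts primary microRNAs, 0.31 (adjusted p = 0.106) and the let-7 target Mycn -0.31 (adjusted p = 0.110). Mycn was the 1 member of this list called in Nanos3-detecting cells, where the median of the 13 was -0.06 beside 0.01 over all tested genes. Lin28a was higher in these cells too, and a link between the 2 was not tested. The mean of Mycn was 2.30, 2.97, 1.94 and 2.74 in the detecting cells against 0.37, 1.15, 0.84 and 1.44 in the others, without overlap (difference 1.54, SE 0.27, adjusted p = 0.0102). This difference ran from 1.37 to 2.51 over 13 alternatives and no longer passed in 5 of them (limma adjusted p up to 0.589).

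Of 13 tested members of the DAZ and polyadenylation list 0 passed (median slope -0.01), with Cpeb4 at -0.14, Pabpc4 at -0.13 and Dazap2 at -0.14. Of 13 Y-box and stored-mRNP genes 0 passed (median -0.02), with the germ cell helicase Ddx25 at -0.20, the decapping enzyme Dcp2 at -0.20 and Eif4enif1 at 0.15. Of 14 other germ cell RNA-binding proteins 0 passed (median -0.01), with Elavl2 at 0.32, Fxr1 at -0.24 and Ptbp2 at -0.33. In Nanos3-detecting cells 1 member of the 5 lists passed, Mycn, beside 0.211% of all genes tested. In Nanos2-detecting cells no gene passed at all (0%), so the count of 0 there says nothing particular of the lists.

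The genes most like each member across the 300 cells, by Pearson correlation of log2(FPKM + 1) after subtraction of preparation means, were led by Pxt1 (0.46), Upp1 (0.43) and Igfbp6 (0.42) for Nanos3. Those for Lin28a were Ddah1 (0.34), Nanos3 (0.33) and Pxt1 (0.32). Dazl, present in every cell, was closest to Snrpe, Calm2 and Hells (0.36 to 0.38). For Nanos1 (Tmem65, Copb2 and Api5), Nanos2 (Zfp455, Sh3bp1 and Zfp454), Dnd1 (Derl1, Pramef8 and Gsto1), Lin28b (Vps36, Mon2 and Wdr77) and Ybx2 (Ankrd16, Pramel1 and Rassf7) the correlations were at most 0.28, which in sparse values is weak. Cells share their preparation and detection depth, and no test was made.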

How the data were processed

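Single-cell cDNA libraries were made on Fluidigm C1 chips with a SMARTer kit, and dead cells, debris and multiplets were excluded by imaging, per the labels' protocols. The authors deposited 1 table of 23354 gene names by 300 cells, whose values are taken as FPKM. Its header gives no unit, so the unit rests on Cufflinks, which is listed with TopHat, FastQC and Picard and the builds mm10 and GRCm38 in the submitters' processing notes, without versions. Id4 is not analysed here. The number after the word Seq in the titles was read as the preparation.

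Values were averaged on the log2(FPKM + 1) scale over the cells of each preparation and quartile. limma 3.58.1 in R 4.3.3, with mean-trended and robust variances, was fitted to the 16 means with quartile and, as a block, preparation. Genes with 1 FPKM or more in at least 30 cells (10411) were tested, with Benjamini-Hochberg adjustment over all of them and a threshold of 0.05. The trend is the slope per step to the next brighter quartile. A difference on this scale understates the change of low genes. Same-preparation means share mice and chip, from which the pairing comes. After subtraction of quartile means, their correlations ran from 0.0112 to 0.360. Shares of cells at 1 FPKM or more were tested by exact permutation of quartile labels within preparations (331776 relabelings, smallest p 6.03e-06), computed in Python 3.11.15. Co-detection used a Mantel-Haenszel odds ratio over preparations. The limma p-values measure quartile or class differences against their variation from preparation to preparation. Differences in level between the 4 preparations are taken out by the block, or by relabeling within preparations for the shares.

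The members, lists and panel were chosen with earlier results of these data known. Named genes are the members, the panel, 3 genes per list by trend p, the 5 largest called differences per direction between cell classes, and the 3 genes most correlated with each member. The planned comparison of Nanos2-only with Nanos3-only cells could not be fitted, since no preparation held 5 Nanos2-only cells. The comparisons of Nanos2-detecting cells, of Nanos3-detecting cells and of the 2 effects, the settings applied to them and the omission of cells that match other cell types were added after the data were seen. A cell matched a list with at least 3 and at least 50% of its measured markers at 5 FPKM or more. Of the list genes, 7 were matched by an older symbol. Scripts were tested on simulated data. The sequences are RefSeq's.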

Additional observations from a re-analysis of the deposited data

Results flagged for a closer look

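In preparation 3, Q1, Dnd1 was detected in 52.6% of cells, far below the other 3 preparations of that quartile (80.95 to 82.4%). Also in preparation 3, Q1, the mean log2(FPKM + 1) of Dazl was 9.80, below the other 3 (10.06 to 10.10). These are 2 of 60 groups of 4 preparations tested for a lone distant value by Dixon's criterion, which chance meets in about 1 of 20 groups.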

How the results depend on the processing

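The table gives no counts, the 4 preparations limit what could be called, and rare transcripts such as Nanos2 rest on 35 cells. The number of genes called for the trend was 442. It fell to 249 with no filter on low values, 147 without the preparation block, 189 with detected genes as a covariate and 128 on the log2 of mean FPKM, and leaving out 1 preparation gave 187 (without preparation 3) to 332 (without preparation 1). For Q1 against Q4 the count of 338 became 177, 99, 135 and 80 in these 4 settings and 137 to 270 without 1 preparation. Median centring took the share of called genes that were higher in brighter cells from 83.7 to 54.9% for the trend and from 83.7 to 57.8% for Q1 against Q4, and moved the median gene of Q1 minus Q4 from 0.10 to -0.08. Neighbouring quartiles gave between 0 and 2 calls in every setting. For Q1 against Q2, 2 calls became 1 with the stricter filter or the covariate, 0 with no filter, without the block, on the log2 of mean FPKM and without cells matching another type, and 0 to 1 without 1 preparation. For Q2 against Q3, 0 calls became 0 to 1, and for Q3 against Q4, 1 call became 2 with a pseudocount of 0.1, 0 with no filter, no block, centring or the log2 of mean FPKM, and 0 to 2 without 1 preparation. Share slopes went from 118 calls to 0 without any 1 preparation, where 3 preparations allow fewer relabelings, and limma without the block called 80.

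Nanos3-detecting cells gave 22 calls, and 0 with no filter, 3 without the block, 1 with the covariate and 10 to 17 without 1 preparation. The other alternatives gave 20 to 29. Nanos2-detecting cells gave 0 calls in all 13 alternatives, and the difference of effects 0 in the 10 that were run. At 5 FPKM preparations 1 and 2 each held under 5 Nanos2 cells. The difference of effects could therefore not be fitted there, and the Nanos2-detecting comparison rested on preparations 3 and 4 only. The log2 odds ratio of Nanos2 with Nanos3 stayed between 0.63 and 2.18, and that of Nanos3 with Lin28a between 1.06 and 2.01.

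Of the members, Lin28a alone crossed the threshold for the trend, without preparation 1. Directions turned in the following settings, none of them with a call, and the cause was not tested. The Nanos1 trend of 0.00 became -0.0566 with centring, -0.0898 with the covariate, -0.0817 on the log2 of mean FPKM and -0.0192 to 0.0384 without 1 preparation, and its Q1 minus Q4 difference became -0.0817 and -0.0175 with the covariate and the log2 of mean FPKM. Its share slope of -0.12 became 0.17 for any value above 0 and -0.80 to 0.39 without 1 preparation. Without 1 preparation the Dnd1 trend ran from -0.278 to 0.138 and its Q1 minus Q4 difference from -0.99 to 0.223, turning without preparation 3, and its share slope of 1.15 became -0.15 at 5 FPKM and -3.66 to 5.93 without 1 preparation. Nanos3 for Q1 minus Q4 became 0.0621 with the covariate. In Nanos3-detecting cells Lin28b ran from -0.236 to 0.0388 without 1 preparation. In Nanos2-detecting cells Lin28a became -0.074 at 5 FPKM, a setting that for Nanos2 held preparations 3 and 4 only. Lin28b there became -0.0921 with centring, -0.556 with the covariate and -0.0924 to 0.198 without 1 preparation. Ybx2 became -0.152, -0.113, -0.114 and -0.0491 with centring, the covariate, 5 FPKM and quartile centring, and -0.167 to 0.15 without 1 preparation. Upp1 became -0.04 with centring, -1.02 with the covariate, -0.122 without cells matching another type and -0.131 to 0.568 without 1 preparation.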

Other observations

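For 4 of the 16 panel genes, picked after their values were seen, the counts of cells in the 4 classes by Nanos2 and Nanos3 are given here with no test. Some of the other panel genes were near even, such as Sall4 (95.5 to 100% of each class) and Sohlh2 (74.2 to 83.3%). Others were not. Upp1 was found in 79.3% of cells with both transcripts, 50% with Nanos2 alone, 73.3% with Nanos3 alone and 47.2% with neither. Gfra1, the GDNF co-receptor, stood at 1 FPKM or more in 24 of the 29 cells with both transcripts, in 5 of the 6 with Nanos2 alone, in 86 of the 176 with Nanos3 alone and in 59 of the 89 with neither. Eomes, a T-box factor known from stem-like spermatogonia, was found in 11, 3, 36 and 34 cells of these classes. Kit, a receptor of differentiating spermatogonia, was found in 6, 1, 49 and 37 cells. Sox3, known from progenitors, was found in 12 of the cells with both, in 0 of the 6 with Nanos2 alone, in 72 with Nanos3 alone and in 23 with neither. The classes are spread unevenly over preparations: the cells with both came from preparations 1 to 4 as 3, 7, 10 and 9, and those with Nanos2 alone as 3, 3, 0 and 0. Preparation 1 held the fewest genes per cell, though not the lowest estimated depth. The part of preparation and of the number of detected genes in these counts was not tested.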
